A study of Homo sapiens with 7 samples.

Results

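Collagen chain genes encode the polypeptides that assemble as trimers into the collagens of the extracellular matrix. They were taken as all genes whose symbol is COL, a number, A and a number and that had a probe with a single gene symbol on the array, without pseudogenes and antisense genes. This rule used no expression value and gave 43 genes of 18417 on the array. Of the 44 chains in the structural classes used below, COL17A1 had no such probe and was not analysed here. In SUM159 cells with and without knockdown of SHP2, no collagen gene passed the threshold on adjusted p in any comparison, and the values that stood out were lower COL24A1 and COL12A1 and higher COL6A1 and COL14A1 on the SHP2 knockdown arrays.

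Total RNA of SUM159, a human triple-negative breast cancer line of mesenchymal type, was hybridized to 7 Human Gene 1.0 ST arrays. The cells were transduced with a lentiviral vector carrying a doxycycline-inducible hairpin, either a control (Ctrl shRNA, 2 arrays) or 1 of 2 hairpins against SHP2 (SHP2 sh1, 2 arrays, and SHP2 sh2, 3 arrays). All cells, controls included, received doxycycline from the day after seeding and were cultured in 2D for 15 days. The question was how SHP2, a tyrosine phosphatase encoded by PTPN11, affects gene expression in these cells. All groups share 1 cell line, and the labels do not give separate cultures for arrays of 1 group, so the p-values reflect array-to-array spread that could be technical. In bulk RNA, fewer cells with a transcript and less of it per cell cannot be told apart.

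Expression is given as log2 values from RMA, the robust averaging of multiple arrays, and the number of arrays limits their precision. PTPN11 read 9.53 and 9.18 on the Ctrl shRNA arrays, 7.90 and 6.93 on the SHP2 sh1 arrays, and 7.96, 7.20 and 7.89 on the SHP2 sh2 arrays, so all 5 knockdown arrays were below both controls. Its fitted difference for the mean of both hairpins was -1.80 (SE 0.34, limma adjusted p = 0.758). The targeted gene thus did not pass the threshold on adjusted p either, and a gene that did not pass is not shown to be unchanged. The second replicates of SHP2 sh1 and SHP2 sh2 stood apart from the rest, correlating with the other 5 arrays at 0.886 to 0.965, against 0.981 to 0.992 among those 5. All 5 mesenchymal markers (VIM, FN1, CDH2, ZEB1 and SPARC) were above 7.02, the median level of all genes, on average over the arrays, and their mean ran from 9.96 to 10.9 between arrays. Of 4 epithelial markers, KRT8 and KRT18 were above it, EPCAM read 2.89 to 4.10 and CDH1 5.16 to 7.42. Of 4 fibroblast markers, PDGFRA and PDGFRB were above it, and LUM (3.94 to 5.39) and DCN (4.44 to 5.61) were below it. None of 3 endothelial or 3 blood markers was above it.

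Fibrillar collagens form the banded fibres that give connective tissue its tensile strength, and FACIT collagens sit on the surface of these fibres. Type IV collagen forms the sheet of basement membranes, and type VI collagen forms beaded microfilaments next to the cell. Mesenchymal cells make most of the fibrillar collagen of a tissue, and tumour cells of mesenchymal type may make it too. The chains are hydroxylated, folded and trimerized in the endoplasmic reticulum (ER), exported, trimmed of their propeptides and cross-linked outside the cell.

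RefSeq promoter windows (GRCh38.p14, 250 bases before to 50 after a transcription start) were found for 31 of the 43 genes, 43 windows in all. Genes without a window included COL1A1, COL1A2, COL3A1 and COL6A1. The 4 windows below belong to genes described in the results. The first is the shared start region of COL4A1 and COL4A2, whose levels were both lowest on the same array, as were those of some other collagen genes. The others are the 2 genes lower on all knockdown arrays, and COL6A2, higher on all of them. Capitals mark, on either strand, matches to the CCAAT box, to the GC box (GGGCGG) and to the TATA box letters TATAAA, and each sequence reads 5′ to 3′ in the direction of the named gene. The COL4A2 window holds both divergent starts, COL4A1 on the minus strand and COL4A2 on the plus strand of chromosome 13, 127 bases apart. For COL24A1 the more upstream of its starts is shown.
COL4A2, chr13:110307034-110307333, plus strand: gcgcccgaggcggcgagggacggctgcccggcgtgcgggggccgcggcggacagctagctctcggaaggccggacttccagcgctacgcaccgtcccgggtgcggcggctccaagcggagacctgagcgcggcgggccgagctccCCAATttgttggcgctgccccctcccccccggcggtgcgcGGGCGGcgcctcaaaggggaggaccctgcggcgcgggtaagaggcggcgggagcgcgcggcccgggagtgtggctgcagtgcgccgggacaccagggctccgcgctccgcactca
COL12A1, chr6:75206004-75206303, minus strand: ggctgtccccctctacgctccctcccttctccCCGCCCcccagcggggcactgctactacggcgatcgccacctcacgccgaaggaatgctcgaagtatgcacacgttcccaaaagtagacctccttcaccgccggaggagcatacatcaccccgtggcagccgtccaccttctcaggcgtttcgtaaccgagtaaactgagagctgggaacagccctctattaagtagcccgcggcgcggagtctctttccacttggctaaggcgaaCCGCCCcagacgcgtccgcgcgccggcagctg
COL24A1, chr1:86156723-86157022, minus strand: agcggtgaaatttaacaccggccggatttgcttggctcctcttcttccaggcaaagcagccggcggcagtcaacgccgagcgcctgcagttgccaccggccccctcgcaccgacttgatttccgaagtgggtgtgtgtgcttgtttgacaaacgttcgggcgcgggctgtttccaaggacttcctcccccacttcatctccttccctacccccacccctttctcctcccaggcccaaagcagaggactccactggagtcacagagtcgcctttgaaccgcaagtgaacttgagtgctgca
COL6A2, chr21:46097862-46098161, plus strand: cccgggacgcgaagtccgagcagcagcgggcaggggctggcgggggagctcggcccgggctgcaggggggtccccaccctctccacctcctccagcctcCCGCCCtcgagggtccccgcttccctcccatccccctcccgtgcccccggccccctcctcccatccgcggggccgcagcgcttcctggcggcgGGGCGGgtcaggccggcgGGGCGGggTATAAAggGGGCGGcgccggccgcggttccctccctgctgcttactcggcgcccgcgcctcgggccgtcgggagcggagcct
Among these windows, COL4A2 held 1 CCAAT and 1 GGGCGG, COL12A1 held 2 GGGCGG, COL6A2 held 4 GGGCGG and 1 TATAAA, and the COL24A1 window shown held none of them, while a window at another start of that gene held the GC box. CCGGAA holds the shorter GGAA core of ETS factors such as ETS1, which the study examined. CCGGAA was in 0 of the 43 collagen windows and in 17.2% of all 35116 windows of this length, both strands searched. GGAA alone was not searched for, and each of the windows above holds it on at least 1 strand. TGANTCA, the AP-1 motif, was in 1 collagen window (COL10A1), 2.33%, and in 7.71% of all. CCAAT was in 30.2% of collagen windows and 34.6% of all, GGGCGG in 55.8% and 45%, and TATAAA in 16.3% and 11.5%. These shares describe letters in a short window, and divergent pairs share bases, so the windows are not independent.

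Across the 43 genes, the fitted log2 difference of the mean of both hairpins from Ctrl shRNA had a median of 0.25, with 35 genes above 0 and 8 below. Over all 18417 genes the median was 0.075 and 58.05% were above 0. The shift lay mostly on the 2 arrays that stood apart. The median collagen difference from the control mean reached 0.47 (SHP2 sh1 replicate 2) and 0.52 (SHP2 sh2 replicate 2) on them, and was -0.00092, 0.10 and 0.061 on SHP2 sh1 replicate 1, SHP2 sh2 replicate 1 and SHP2 sh2 replicate 3. Without the 2 arrays, the median was -0.0097, with 21 genes above 0 and 22 below, against 0.0018 and 50.6% above 0 over all genes. With cyclic loess normalization added, it was 0.16 with 30 above 0.

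On these 2 arrays, genes brighter and dimmer than the median gene of the Ctrl shRNA arrays had median differences of opposite sign, and the collagen genes did not follow that split. The split was made on the mean of both controls, chosen after the data were seen, so that no gene counted as bright through its knockdown arrays. Of the 24 collagen genes above the median control level of 6.98, 17 were above their control mean on SHP2 sh1 replicate 2 and 17 on SHP2 sh2 replicate 2, with medians of 0.56 and 0.28. All 9208 genes above that level had medians of -0.32 and -0.62 there. The 19 dimmer collagen genes, COL14A1 and COL20A1 among them, had medians of 0.41 and 0.68, beside 0.30 and 0.57 for all dimmer genes. The 7 brighter collagen genes below their control mean on both arrays were COL12A1, COL24A1, COL4A1, COL4A2, COL4A5, COL5A2 and COL6A3. COL24A1 counted as bright through Ctrl shRNA replicate 2 alone. The part of array quality in the collagen shift was not tested.

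**Figure D1:**
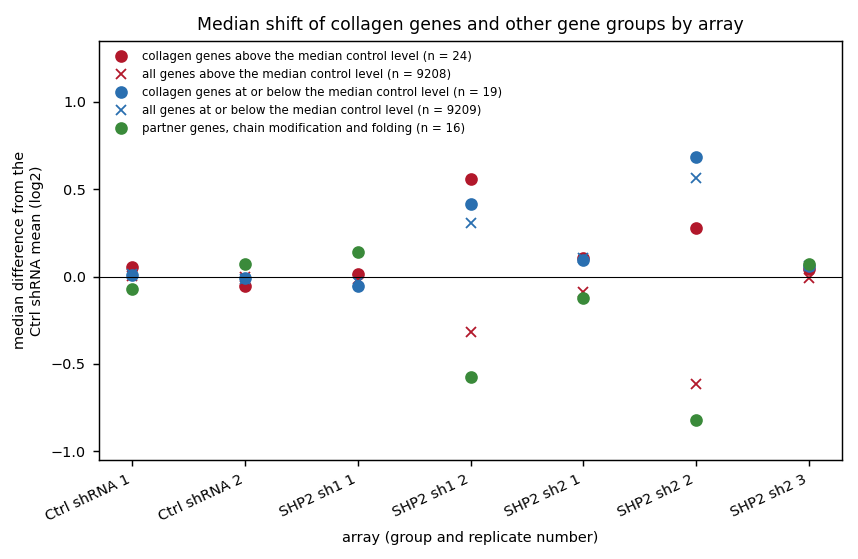
Each point is the median, over the genes of a group, of the difference from the mean of the 2 Ctrl shRNA arrays (log2, vertical axis) on 1 array (horizontal axis), with genes split by their level on the Ctrl shRNA arrays. On SHP2 sh1 replicate 2 and SHP2 sh2 replicate 2 the brighter collagen genes (filled red, 0.56 and 0.28) lie above 0 and all brighter genes (red crosses, -0.32 and -0.62) below it, and on the other 5 arrays both lie near 0.

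**Figure D2:**
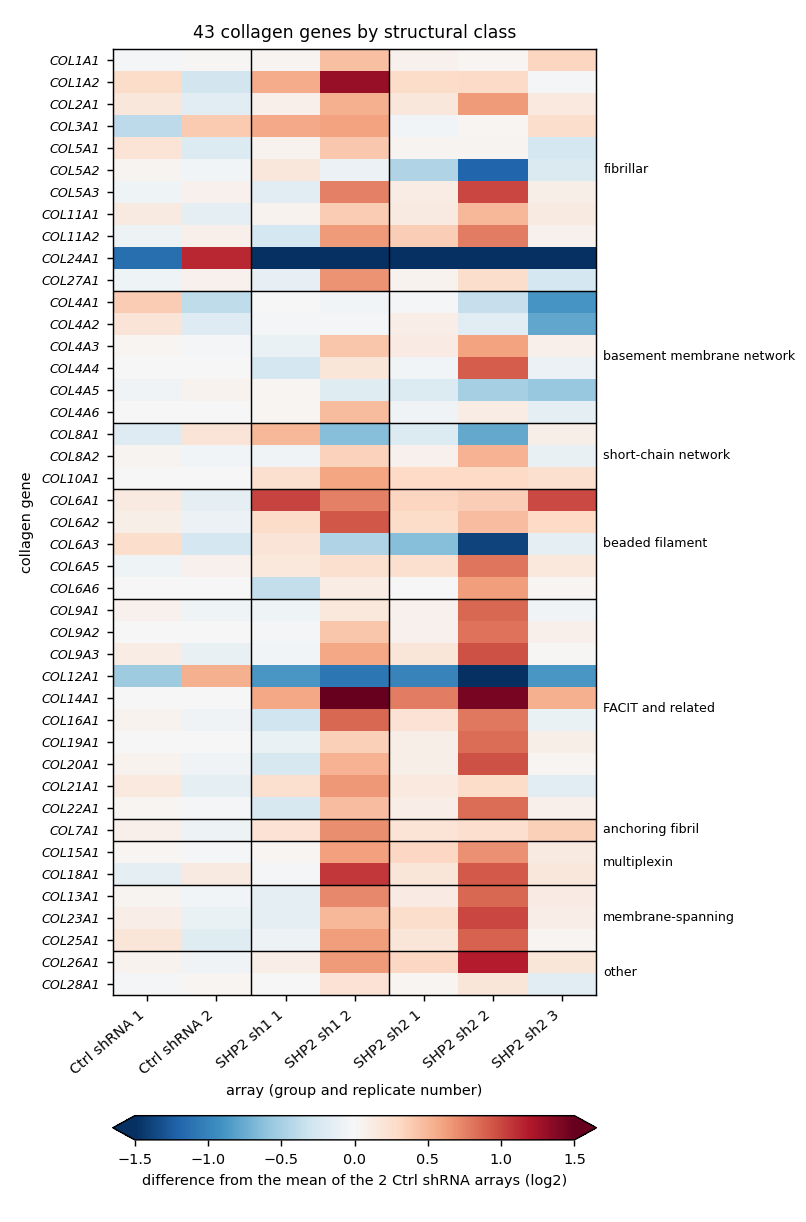
Each row is a collagen gene, ordered by structural class, each column an array, and the colour is the difference from the mean of the 2 Ctrl shRNA arrays (log2), with colours limited at -1.5 and 1.5. COL24A1 and COL12A1 are blue on all 5 knockdown arrays, COL14A1 and COL6A1 are red on all 5, and 35 of the 43 genes are above 0 on SHP2 sh1 replicate 2 and on SHP2 sh2 replicate 2.

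No collagen gene was called at an adjusted p under 0.05 (limma, Benjamini-Hochberg over 18417 genes) in any of the 4 comparisons, where 0% of all genes were called. The smallest adjusted p over all genes was 0.758 for the mean of both hairpins. It was 0.994 for SHP2 sh1, 0.667 for SHP2 sh2 and 1 for SHP2 sh2 against SHP2 sh1. At an unadjusted p under 0.05, the mean of both hairpins gave 2 collagen genes lower (COL24A1, COL12A1), against 1.25% of all genes, and 2 higher (COL6A1, COL14A1), against 0.69%. With SHP2 sh1 there was 1 lower (COL24A1), against 0.456%, and 3 higher (COL6A1, COL1A2, COL14A1), against 0.635%. With SHP2 sh2 there were 2 lower (COL24A1, COL12A1), against 1.81%, and 0 higher, against 0.532%. Between the hairpins, 1 was lower with SHP2 sh2 (COL1A2), against 0.57%, and 0 higher, against 0.0597%. Set against these shares of 43 genes, no count was more than 3 genes above the background.

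Read array by array, 2 of 43 collagen genes, 4.65%, were lower on all 5 knockdown arrays than on both controls, against 7.17% of all genes. In the other direction, 9 of 43, 20.9%, were higher on all 5, against 8.13% of all genes. These were COL1A1, COL6A1, COL6A2, COL6A5, COL7A1, COL10A1, COL14A1, COL15A1 and COL26A1. On the 3 knockdown arrays left without the 2 that stood apart, the same 9 genes were higher, against 10.1% of all genes, and 3 were lower (COL24A1, COL12A1 and COL4A4), against 8.81%. The gap between the groups was 0.53 for COL14A1, 0.23 for COL10A1, 0.19 for COL6A1, 0.19 for COL6A2 and 0.13 for COL7A1. It was below 0.1 for the other four (COL6A5, COL26A1, COL1A1 and COL15A1), and with cyclic loess COL1A1, COL10A1 and COL6A5 overlapped. Median centring gave an overlap for COL1A1.

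**Figure D3:**
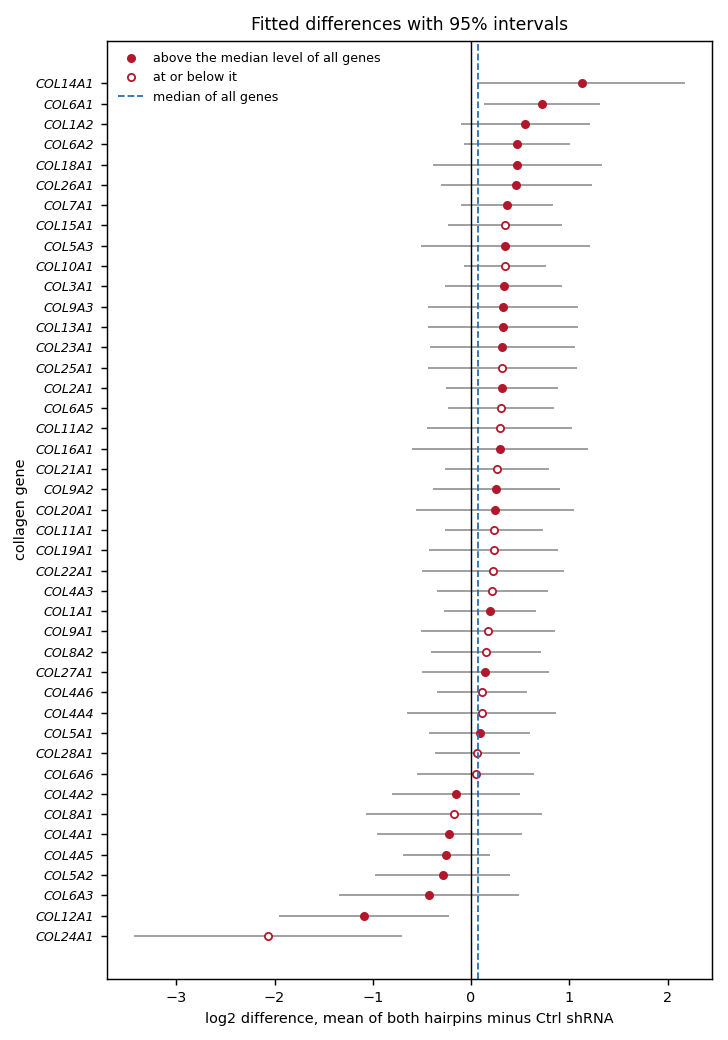
Points are the fitted log2 difference of the mean of both hairpins from Ctrl shRNA for each of the 43 collagen genes, lines their 95% intervals from limma, the solid line 0 and the dashed line the median of all genes (0.075). The intervals of COL24A1 and COL12A1 lie below 0 and those of COL14A1 and COL6A1 above it, without adjustment for the number of genes, and those of all other collagen genes cross 0.

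Among the 11 fibrillar chains, 9 had a difference above 0 and 2 below, with a median of 0.23 and 1 at an unadjusted p under 0.05. When both arrays that stood apart were left out, the median was -0.024, with 5 above 0 and 6 below. The gene at an unadjusted p under 0.05 was COL24A1, a minor fibrillar chain known from developing bone and cornea. It read 6.69 and 8.95 on the Ctrl shRNA arrays, 5.57 and 5.77 on the SHP2 sh1 arrays, and 5.58, 6.22 and 5.71 on the SHP2 sh2 arrays. All 5 knockdown arrays were below both controls, by at least 0.47, and the controls differed from each other by 2.26. The fitted difference was -2.07 (SE 0.57, 95% interval -3.43 to -0.71, 4.19-fold lower, unadjusted p = 0.0092, limma adjusted p = 0.758). It was -0.93 without Ctrl shRNA replicate 2 and -3.20 without Ctrl shRNA replicate 1. Against these same 2 controls, the difference was -2.15 (SE 0.68) with SHP2 sh1 and -1.98 (SE 0.62) with SHP2 sh2.

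COL1A1 and COL1A2 encode the chains of type I collagen, the main fibre of bone, skin and tendon. COL1A1 read 11.43 and 11.46 with Ctrl shRNA, 11.48 and 11.90 with SHP2 sh1, and 11.52, 11.48 and 11.77 with SHP2 sh2, a difference of 0.19 (SE 0.20). COL1A2 read 10.29 and 9.75 with Ctrl shRNA, 10.58 and 11.33 with SHP2 sh1, and 10.29, 10.31 and 10.00 with SHP2 sh2. Both SHP2 sh1 arrays lay above the other five for COL1A2, and the SHP2 sh2 arrays overlapped the controls. The COL1A2 difference was 0.93 with SHP2 sh1 (SE 0.33, unadjusted p = 0.027, limma adjusted p = 0.994) and 0.18 with SHP2 sh2 (SE 0.30). With SHP2 sh1 it was 0.55 (SE 0.30, unadjusted p = 0.15, limma adjusted p = 0.587) without the 2 arrays that stood apart. It ran from 0.55 without SHP2 sh1 replicate 2 to 1.31 without SHP2 sh1 replicate 1. The difference between the hairpins was -0.75 (SE 0.30, unadjusted p = 0.043, limma adjusted p = 1), so a difference between them was not shown, and the same arrays moved it from -0.37 to -1.13.

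COL3A1, which forms the thin fibres of skin and vessels, read 9.33 and 10.12 with Ctrl shRNA, 10.29 and 10.32 with SHP2 sh1, and 9.67, 9.75 and 9.98 with SHP2 sh2. The SHP2 sh2 arrays lay between the controls, and the difference of 0.33 (SE 0.25) was -0.061 without Ctrl shRNA replicate 1. COL5A1 and COL5A2 encode chains of type V collagen, which is built into type I fibres and sets their diameter. COL5A1 read 8.50 and 8.08 with Ctrl shRNA, 8.34 and 8.69 with SHP2 sh1, and 8.33, 8.33 and 8.03 with SHP2 sh2. COL5A2 read 9.03 and 8.96 with Ctrl shRNA, 9.16 and 8.91 with SHP2 sh1, and 8.55, 7.81 and 8.78 with SHP2 sh2. All 3 SHP2 sh2 arrays were below both controls for COL5A2, with a difference of -0.62 (SE 0.31), or -0.33 without SHP2 sh2 replicate 2, whereas the SHP2 sh1 arrays lay on either side of them, and the difference between hairpins did not pass (limma adjusted p = 1).

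Another type V chain, COL5A3, read 7.39 and 7.50 with Ctrl shRNA, 7.27 and 8.21 with SHP2 sh1, and 7.56, 8.45 and 7.53 with SHP2 sh2. COL2A1, the cartilage chain, read 7.24 and 6.91, then 7.16 and 7.62, then 7.24, 7.72 and 7.23 in the same order. COL27A1 read 8.37 and 8.50, then 8.31 and 9.10, then 8.49, 8.70 and 8.17. For these 3 genes the highest values came from the 2 arrays that stood apart, and the groups overlapped. COL11A1 and COL11A2 were at or below the median level, with differences of 0.23 and 0.29. For COL11A2, 3 probes were on the array, of which 2 held identical values and gave these values. The remaining probe read higher, at 7.01 and 7.02 with Ctrl shRNA, 6.90 and 7.46 with SHP2 sh1, and 7.17, 7.90 and 7.03 with SHP2 sh2.

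The 5 beaded-filament genes, the chains of type VI collagen, had a median difference of 0.30, with 4 above 0 and 1 below, and of 0.18 without the 2 arrays that stood apart. COL6A1 read 9.86 and 9.60 with Ctrl shRNA, 10.73 and 10.48 with SHP2 sh1, and 10.05, 10.10 and 10.72 with SHP2 sh2, all 5 above both controls. The fitted difference was 0.72 (SE 0.25, 95% interval 0.13 to 1.31, 1.65-fold, unadjusted p = 0.023, limma adjusted p = 0.758), and 0.83 (SE 0.26) without the 2 arrays that stood apart. COL6A2 read 9.38 and 9.22 with Ctrl shRNA, 9.57 and 10.23 with SHP2 sh1, and 9.57, 9.77 and 9.59 with SHP2 sh2. All 5 were again above both controls, with a difference of 0.47 (SE 0.23, unadjusted p = 0.077), or 0.28 (SE 0.079) without the 2 arrays.

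COL6A3, the large chain that joins COL6A1 and COL6A2 in the trimer, did not share this order. It read 10.82 and 10.30 with Ctrl shRNA, 10.75 and 10.10 with SHP2 sh1, and 9.92, 9.17 and 10.42 with SHP2 sh2, and the fitted difference was -0.43 (SE 0.38). Only SHP2 sh2 replicate 1, SHP2 sh2 replicate 2 and SHP2 sh1 replicate 2 were below both controls. The dim COL6A5 read 3.31 and 3.44 with Ctrl shRNA and 3.53 to 4.18 on the knockdown arrays, and COL6A6 differed by 0.050 (SE 0.25).

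Of the 10 FACIT and related chains, 9 had a difference above 0 and 1 below, with a median of 0.25. Without the 2 arrays that stood apart 4 were above 0 and 6 below, with a median of -0.019. COL12A1, a FACIT chain found on type I fibres, was the one below in the fit of all arrays. It read 8.88 and 9.95 with Ctrl shRNA, 8.54 and 8.32 with SHP2 sh1, and 8.41, 7.69 and 8.54 with SHP2 sh2. All 5 knockdown arrays were below both controls, by at least 0.34, and the controls differed by 1.07. The fitted difference was -1.09 (SE 0.36, 95% interval -1.96 to -0.22, 2.13-fold lower, unadjusted p = 0.021, limma adjusted p = 0.758). It was -0.55 without Ctrl shRNA replicate 2, -1.63 without Ctrl shRNA replicate 1, and -0.91 (SE 0.39) without the 2 arrays that stood apart. COL24A1 and COL12A1 were the only collagen genes with a gap over 1 between the Ctrl shRNA arrays, as for 0.51% of all genes, and in both it was Ctrl shRNA replicate 2 that read higher.

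COL14A1, a FACIT chain related to COL12A1, was higher on all 5 knockdown arrays. It read 6.29 on both Ctrl shRNA arrays, 6.87 and 8.39 with SHP2 sh1, and 7.05, 7.70 and 6.82 with SHP2 sh2. The fitted difference was 1.13 (SE 0.44, 95% interval 0.074 to 2.18, 2.18-fold, unadjusted p = 0.039, limma adjusted p = 0.758). The 2 highest values came from the arrays that stood apart, and without these arrays the difference was 0.62 (SE 0.097, unadjusted p = 0.0052, limma adjusted p = 0.469). COL9A2, COL9A3, COL16A1 and COL20A1, the other four FACIT and related chains above the median level, differed by 0.26, 0.33, 0.29 and 0.25, with standard errors of 0.27 to 0.37. COL16A1 read 7.76 and 7.66 with Ctrl shRNA, 7.41 and 8.57 with SHP2 sh1, and 7.92, 8.50 and 7.61 with SHP2 sh2, and COL9A2, COL9A3 and COL20A1 also had their highest values on the arrays that stood apart.

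**Figure D4:**
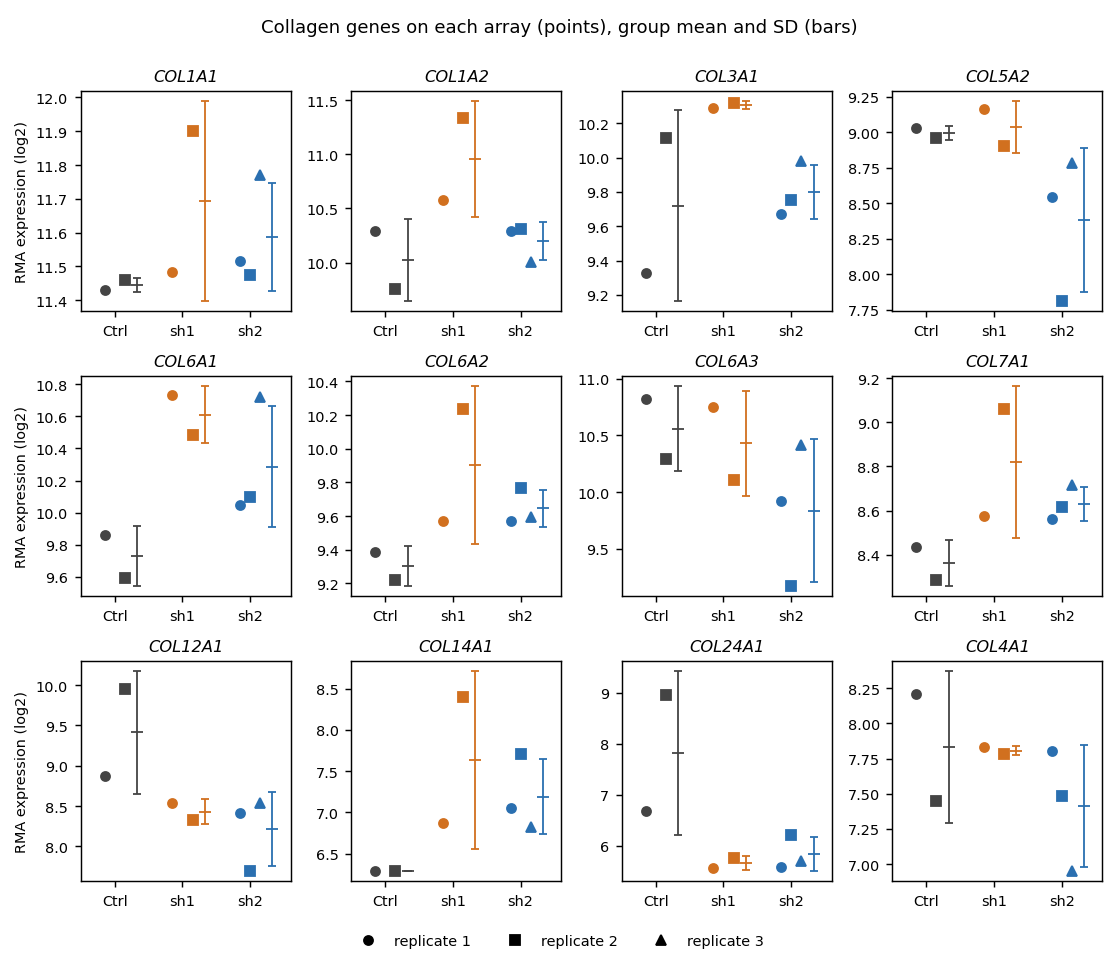
Each panel gives the log2 RMA expression (vertical axis, a range of its own in each panel, not from 0) of 1 collagen gene on each array, marked by replicate, with the group mean and SD beside the points (n = 2 for Ctrl shRNA, 2 for SHP2 sh1, 3 for SHP2 sh2). In COL6A1, COL6A2, COL7A1, COL14A1 and COL1A1 all 5 knockdown points lie above both control points, in COL12A1 and COL24A1 all lie below, and in COL6A3 the groups overlap.

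The 6 chains of type IV collagen had a median of -0.024, with 3 above 0 and 3 below. It was -0.17 when both arrays that stood apart were left out, with 1 above 0 and 5 below. COL4A1 and COL4A2, the chains found in nearly every basement membrane, are the pair whose shared start region is shown above. COL4A1 read 8.21 and 7.45 with Ctrl shRNA, 7.83 and 7.78 with SHP2 sh1, and 7.80, 7.49 and 6.95 with SHP2 sh2. COL4A2 read 8.29 and 7.91 with Ctrl shRNA, 8.09 and 8.07 with SHP2 sh1, and 8.20, 7.93 and 7.33 with SHP2 sh2. Both genes read higher on Ctrl shRNA replicate 1 than on replicate 2, and both were lowest on SHP2 sh2 replicate 3. That array also gave the lowest values of COL4A5, COL4A6, COL5A1 and COL27A1, among others. The fitted differences of COL4A1 and COL4A2 were -0.22 (SE 0.31) and -0.15 (SE 0.27), and the groups overlapped for both.

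COL4A5, a chain of the kidney basement membrane, read 7.75 and 7.87 with Ctrl shRNA, 7.84 and 7.63 with SHP2 sh1, and 7.60, 7.31 and 7.24 with SHP2 sh2. All 3 SHP2 sh2 arrays were below both controls, with a difference of -0.42 (SE 0.20, unadjusted p = 0.074). COL4A3, COL4A4 and COL4A6 were below the median level, with differences of 0.21, 0.11 and 0.11. Further divergent pairs, COL4A3 with COL4A4 (starts 419 bases apart) and COL4A5 with COL4A6 (380 bases apart), are in this class.

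COL7A1, the only chain of anchoring fibrils, which fasten the epidermis to the dermis, read 8.44 and 8.29 with Ctrl shRNA, 8.58 and 9.06 with SHP2 sh1, and 8.56, 8.62 and 8.72 with SHP2 sh2. All 5 were above both controls, with a difference of 0.36 (SE 0.20, unadjusted p = 0.11). COL18A1, a basement membrane chain whose end fragment is endostatin, read 8.02 and 8.29 with Ctrl shRNA, 8.14 and 9.21 with SHP2 sh1, and 8.34, 9.07 and 8.32 with SHP2 sh2. Its values on the 2 arrays that stood apart were the highest, and the SHP2 sh1 difference of 0.52 (SE 0.43) was -0.015 without SHP2 sh1 replicate 2. COL15A1, the other multiplexin, read 6.04 and 5.99 with Ctrl shRNA and 6.04 to 6.70 on the knockdown arrays.

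The 3 short-chain network genes were all at or below the median level, with a median difference of 0.15. It was -0.0097 with cyclic loess and 0.22 without the 2 arrays that stood apart. COL10A1, the chain of growth-plate cartilage, read 5.35 and 5.33 with Ctrl shRNA, 5.58 and 5.93 with SHP2 sh1, and 5.64, 5.64 and 5.58 with SHP2 sh2, all 5 above both controls, with a difference of 0.35 (SE 0.17). COL8A1 and COL8A2 differed by -0.18 and 0.15, with standard errors of 0.37 and 0.23. Of the membrane-spanning collagens, COL13A1 read 7.12 and 7.03 with Ctrl shRNA, 6.93 and 7.79 with SHP2 sh1, and 7.20, 7.94 and 7.20 with SHP2 sh2. COL23A1 read 7.54 and 7.35, then 7.31 and 7.94, then 7.71, 8.44 and 7.55 in the same order. Both were highest on the arrays that stood apart, and the class median of 0.32 over 3 chains was 0.014 without them. COL26A1 read 7.12 and 7.0 with Ctrl shRNA, 7.16 and 7.69 with SHP2 sh1, and 7.37, 8.24 and 7.24 with SHP2 sh2, all 5 above both controls by a gap of 0.039.

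Genes that modify, export, trim, cross-link or bind collagen were read from the same fit. Of 43 measured partner genes, 20 had a difference below 0 and 23 above, with a median of 0.030, and 0 were called on adjusted p. At an unadjusted p under 0.05, 1 was lower, against 1.25% of all genes, and 2 were higher, against 0.69%. ADAMTS2, which removes the amino-terminal propeptide of fibrillar procollagens, read 7.76 and 7.39 with Ctrl shRNA, 8.25 and 8.77 with SHP2 sh1, and 8.59, 8.27 and 7.88 with SHP2 sh2, all 5 above both controls. Its difference was 0.80 (SE 0.27, unadjusted p = 0.021, limma adjusted p = 0.758). ITGA11, an integrin chain that binds fibrillar collagen, read 6.41 and 6.13 with Ctrl shRNA, 7.08 and 7.62 with SHP2 sh1, and 6.73, 7.47 and 6.49 with SHP2 sh2, also all 5 above. Its difference was 0.85 (SE 0.32, unadjusted p = 0.032, limma adjusted p = 0.758). Its mean over the arrays, 6.85, was below the median level of all genes, and its highest values, 7.62 and 7.47, came from the arrays that stood apart.

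TLL1, a protease of the BMP1 family that removes the carboxy-terminal propeptide, was the partner gene lower at an unadjusted p under 0.05. It read 9.30 and 9.15 with Ctrl shRNA, 9.19 and 8.27 with SHP2 sh1, and 8.17, 6.71 and 7.34 with SHP2 sh2. All 3 SHP2 sh2 arrays were below both controls, and SHP2 sh1 replicate 1 lay between them. The difference was -0.50 (SE 0.51) with SHP2 sh1 and -1.82 (SE 0.47, unadjusted p = 0.0066, limma adjusted p = 0.667) with SHP2 sh2. Between the hairpins it was -1.33 (unadjusted p = 0.027, limma adjusted p = 1).

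By role, the median difference was -0.26 over 16 genes of chain modification and folding (11 below 0, 5 above) and -0.35 over 5 genes of ER export (4 below, 1 above). It was 0.29 over 8 genes of propeptide removal, 0.19 over 5 cross-linking genes and 0.23 over 9 receptors, with 6, 4 and 7 above 0. The modification and folding genes all lay above the median level of all genes, on average over the arrays. Among all genes above that level the median difference was -0.14, with 37.37% above 0. Among all genes at or below it, the median was 0.17, with 78.73% above 0. On the 2 arrays that stood apart, the modification and folding genes had medians of -0.57 and -0.82, and the ER export genes had negative medians too. The medians of the other roles were positive on both arrays: 0.56 and 0.56 for propeptide removal, 0.71 and 0.70 for cross-linking, and 0.33 and 0.45 for receptors. All genes above the median control level had -0.32 and -0.62 there, and the collagen genes above that level had 0.56 and 0.28. On the other 3 knockdown arrays the modification genes ran from -0.12 to 0.14. PLOD2, a lysyl hydroxylase, had the lowest fitted difference of the 16 modification and folding genes (-1.11, SE 1.01). It was chosen after its values were seen and is not typical of them. It read 10.13 and 9.98 with Ctrl shRNA, 10.71 and 7.70 with SHP2 sh1, and 9.17, 6.95 and 9.94 with SHP2 sh2.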

How the data were processed

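Human Gene 1.0 ST arrays of 7 SUM159 samples were read through the deposited series table. The authors made log2 expression values by robust multi-array averaging in oligo, whose version the sources used here do not give. This method corrects background, normalizes quantiles and summarises probes. The deposited log2 values (1.94 to 13.9) were used as given. Groups came from the sample titles, and 0 columns were left unmapped. Of 33297 probes, 19460 had 1 gene symbol in the platform annotation, 1754 had several, of which 1 named a collagen gene, and 12083 were not listed. Symbols were updated by gene ID with RefSeq (19429 found). The probe with the largest interquartile range stood for each of 18417 genes, of which 769 had more than 1 probe, after the study's methods.

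limma (3.58.1, R 4.3.3) was run with eBayes on a model of 3 group means that took in all 7 arrays, for each hairpin and for the mean of both against Ctrl shRNA, and for SHP2 sh2 against SHP2 sh1. All p-values are two-sided. They were adjusted by Benjamini-Hochberg across the 18417 genes, and adjusted values under 0.05 were called. Log2 differences are the first group minus the second. The procedure was tested on simulated data. The collagen genes, classes, partner and marker lists and the alternatives were chosen with earlier results of these data known. Values by array are given for collagen genes above the median level of all genes or at an unadjusted p under 0.05 in any comparison, 26 in all, and for others where named they were chosen after their values were seen. Partner genes COLGALT2 and ITGA1 were not analysed here. Partner genes were named at an unadjusted p under 0.05 in the mean of both hairpins.

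Alternatives were another probe or the mean of probes, a filter below the 25th percentile, a mean-dependent prior variance in eBayes, weights for arrays, cyclic loess or centring on the median, a fit to only the arrays compared, a replicate block, each array left out, and both arrays that stood apart left out. Splitting genes by their level on the controls was chosen after seeing the data. Promoter windows were searched as letters on both strands.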

Additional observations from a re-analysis of the deposited data

How the results depend on the processing

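No collagen gene was called under any alternative run. With array weights, 30 genes were called with SHP2 sh2 against 0 as reported, none of them a collagen gene, and SHP2 sh2 replicate 1 then had a weight of 2.53e-06 against 40.83 for each control. At an unadjusted p under 0.05, 201, 432, 358 and 116 genes passed for SHP2 sh1, SHP2 sh2, their mean and the difference between hairpins, and 1917, 2233, 1539 and 3463 without both arrays that stood apart. The labels do not say that a replicate number marks a shared batch. Deviations of same-numbered arrays from their group means correlated at -0.060 in both pairs of Ctrl shRNA and SHP2 sh1. They correlated at 0.023 and -0.027 for Ctrl shRNA and SHP2 sh2, and at 0.62 and 0.85 between the hairpins. In a group of 2 arrays the deviations are equal and opposite, so the values of 2 pairs are not separate results. Both hairpin values therefore carry the arrays that stood apart. Taken directly, SHP2 sh1 replicate 1 and SHP2 sh2 replicate 1 correlated at 0.981, the lowest value among the other 5 arrays. Fitting the replicate block gave 0 called genes in every comparison (753, 3323, 2427 and 468 at an unadjusted p under 0.05), and the collagen medians were 0.22, 0.34, 0.29 and 0.093.

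The collagen median of the mean of both hairpins, 0.25, was -0.0097 without both arrays that stood apart, where the control means are unchanged and the 2 arrays with the highest medians are gone. Leaving out each array in turn, it ran from 0.11 to 0.35, with SHP2 sh1 from -0.00092 to 0.47, with SHP2 sh2 from 0.084 to 0.34 and between hairpins from -0.24 to 0.24. The highest value with SHP2 sh1 and the lowest between hairpins came without SHP2 sh1 replicate 1. Collagen genes lower on all knockdown arrays numbered 2 to 5, with 5 (11.6%, against 12.5% of all genes) without Ctrl shRNA replicate 2 and 4 (9.3%, against 15%) without SHP2 sh1 replicate 1. Those higher on all numbered 9 to 17. They were 15 (34.9%, against 19.5%) without Ctrl shRNA replicate 1 and 11 (25.6%, against 13.4%) without Ctrl shRNA replicate 2. Without SHP2 sh1 replicate 1 they were 17 (39.5%, against 23.4%). Leaving out any other single knockdown array gave 9 (20.9%), against 8.49% to 9.7% of all genes. They numbered 7 of 37 (18.9%, against 6.56%) with the filter on dim genes, 6 (14%, against 6.42%) with cyclic loess and 8 (18.6%, against 9%) with median centring. Called genes were 0 to 0 when each array was left out.

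A direction was read where a value exceeded its standard error. Of 1742 alternative values of the 26 collagen genes, 102 changed sign, 7 of them from such a value. These were COL6A1 between hairpins with array weights (0.048), COL3A1 in the mean of both hairpins without Ctrl shRNA replicate 1 (-0.061, and 0.73 at the most with another array left out), COL18A1 with SHP2 sh1 without SHP2 sh1 replicate 2 or without both arrays (-0.015, and 1.06 at the most with another array left out), COL6A2 between hairpins without SHP2 sh1 replicate 2 (0.074, and -0.59 at the least) or without both arrays (0.012), and COL13A1 in the mean of both hairpins without both arrays (-0.013). The causes were not tested. The fit on only the arrays compared was not run for the mean of both hairpins, where it is the reported fit.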
